A study of Mus musculus with 15 samples.

Results

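Transcript levels of untreated mouse embryonic stem cells were compared between 240 h and 48 h of an experiment in which parallel cultures received doxycycline to deplete Smarcb1, which belongs to the core of the chromatin remodeller BAF. The comparison used every library labelled RNA-seq 48 h (ctrl) or 240 h (ctrl), which made 6 of the 15 libraries of the series, 3 per time point. All cells were of the line 81K1, a derivative of the OG2 line in which an shRNA against Smarcb1 sits in the Rosa26 locus under doxycycline control. The ctrl cells carried this cassette and were labelled untreated, with unchanged Smarcb1, whereas the kd cells were given doxycycline daily for 48 h, 72 h or 240 h. The cells grew in medium with serum and LIF on gelatine without feeder cells and were re-plated every other day. The labels give no passage number or start date for either time point. Nothing in the labels says whether replicates were separate cultures, and the p-values measure only the spread between these libraries, which may be technical. Collection time cannot be told apart from any difference in harvest, RNA isolation or library preparation between the time points, for which the labels give no batch.

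Stem cells kept in serum and LIF hold a network of transcription factors around Pou5f1, Sox2 and Nanog, while factors of the naive state such as Tbx3, Klf4 and Esrrb fluctuate between cells. Passaging renews the medium and the cell density at intervals, and genes that respond to nutrients, growth factors and matrix are known to follow such changes. The untreated cells show how far transcript levels differ between these times without the knockdown.

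The 6 libraries held between 11086920 and 13716912 reads, recovered from the deposited FPKM values, in which reads are scaled to the library size and to the length of the whole gene span. Because the span includes introns, FPKM values are given to compare libraries, within a gene or within the sum of a list, and never to compare genes. No pair of replicates agreed within sampling noise (chi-square per degree of freedom between 1.81 and 8.89 for the 6 pairs), so none was taken for 1 library deposited more than once, which does not show that replicates were separate cultures. The first principal component held 50.5% of the variance and separated 240 h from 48 h, and the second (22.3%) set 240 h ctrl replicate 3 apart. That library also had the lowest share of reads from mitochondrially encoded genes, 0.507%, against 0.931% to 1.55% in the other 5. Smarcb1 measured 3.41, 3.46 and 3.93 FPKM in the 48 h libraries and 3.31, 3.55 and 3.40 FPKM in the 240 h libraries, with overlapping groups and a log2 difference of -0.07 ± 0.06 (SE, adjusted p = 0.467). The stem cell markers Pou5f1, Sox2, Nanog, Zfp42, Esrrb and Tbx3 were all present in every library.

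The test covered 16215 genes whose mean reached 10 reads, and 1075 rose and 986 fell at an adjusted p-value under 0.05 (limma, Benjamini-Hochberg), which is 6.63% and 6.08% of the genes tested. Most of these shifts were small, since 1838 of the 2061 had an absolute log2 fold change of at most 0.58. A gene is called here when it also passed that fold threshold of the study. By this rule 139 genes were higher (0.857%) and 84 were lower (0.518%) at 240 h. Of the 223 called genes, 115 had a mean of fewer than 50 reads and 154 overlapped another listed gene (69.1%, against 60.4% of all tested genes). Reads had been counted over whole spans and irrespective of strand, so values of overlapping genes share reads. By annotated type, 63 protein-coding genes were called higher and 58 lower, whereas 39 antisense genes were called higher and 5 lower. Rescaling to TPM moved the median log2 fold change of all genes from -0.02 to 0.09 and the share of calls that were higher from 62.3% to 89.4%. Without a trend in the prior variance limma called 0 genes, with 3893 at an unadjusted p under 0.05 and a smallest adjusted p of 0.0501, and leaving out 48 h ctrl replicate 3, 48 h ctrl replicate 2 or 240 h ctrl replicate 2 left 94, 126 and 148 called genes. Without 240 h ctrl replicate 1, 79 genes were called higher and 90 lower, so that the excess of higher calls was reversed.

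Tbx3, a T-box factor of the naive state, was higher in all 3 libraries at 240 h. It measured 6.11, 5.95 and 5.82 FPKM at 48 h against 7.95, 8.13 and 8.64 FPKM at 240 h. The groups did not overlap, as was the case for 31.9% of all tested genes, and the log2 fold change was 0.47 ± 0.05 (SE, adjusted p = 4.88e-05) or a 1.38-fold rise, which stayed under the fold threshold. Leaving out single libraries gave log2 fold changes between 0.43 and 0.49, and the adjusted p of Tbx3 was 0.0577 when limma was run without the variance trend. Its divergent neighbour Tbx3os1, an antisense RNA that overlaps the start of Tbx3, was called higher (log2 fold change 1.08 ± 0.22, adjusted p = 0.00552) on a mean of 57 reads. It was among the 10 largest rises when predicted genes and genes with a mean under 50 reads were left aside, with 0.0439, 0.0258 and 0.0201 FPKM at 48 h against 0.0580, 0.0618 and 0.0617 FPKM at 240 h. Since strand was not used in counting, the values of Tbx3os1 can include reads from the start of Tbx3.

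**Figure D1:**
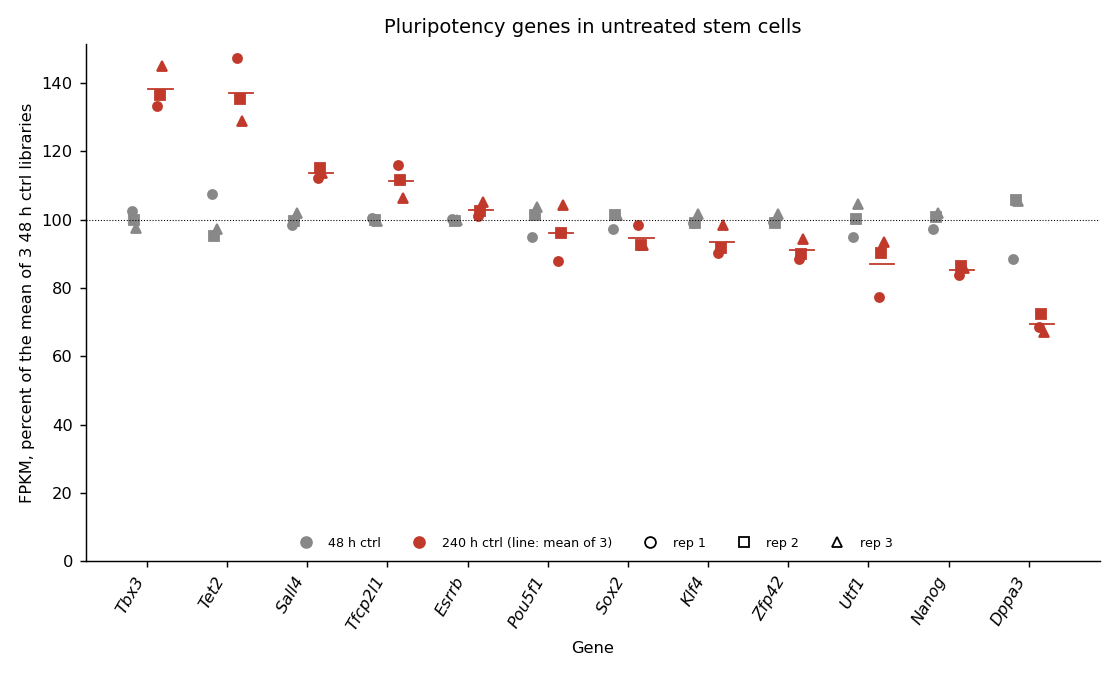
FPKM of 12 pluripotency genes in each untreated library as a percentage of the gene's mean over the 3 48 h ctrl libraries. Grey symbols are 48 h ctrl, red symbols 240 h ctrl, symbol shapes the replicates and short lines the 240 h means. Tbx3 and Tet2 sit above their 48 h values and Dppa3 and Nanog below them in every library.

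The core factors Pou5f1 and Sox2 did not pass the test. Pou5f1 measured 257, 274 and 281 FPKM at 48 h against 238, 260 and 282 FPKM at 240 h (log2 difference -0.06 ± 0.06, adjusted p = 0.549). Sox2 had 316, 329 and 329 FPKM at 48 h against 320, 301 and 301 FPKM at 240 h (-0.08 ± 0.04, adjusted p = 0.240). In both genes the groups overlapped, and after rescaling to TPM their differences, like those of Klf4 and Smarcb1, were slightly above 0 without passing the test. Nanog, the third factor of the core, fell from 73.0, 75.6 and 76.4 FPKM to 62.8, 64.8 and 64.5 FPKM, with no overlap (log2 fold change -0.23 ± 0.04, adjusted p = 0.00246). After rescaling to TPM the value of Nanog was -0.12 and did not pass (adjusted p = 0.0909). Among 11 core pluripotency genes, Sall4 rose (0.19), Nanog, Utf1 (-0.20) and Zfp42 (-0.14) fell and 7 did not pass the test, where 6.63% of all tested genes rose and 6.08% fell. With a trend with transcript length removed, 0 rose and 2 fell. The median of the list was -0.06, against -0.02 for all tested genes.

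Regulators of the naive state moved in both directions. Of 16 tested, 3 rose, 3 fell and 10 did not pass, with a median log2 fold change of -0.06, where 6.63% of all tested genes rose and 6.08% fell. Dppa3, a maternal factor that protects DNA from oxidation of methylated cytosine, measured 16.4, 19.6 and 19.6 FPKM at 48 h against 12.7, 13.4 and 12.5 FPKM at 240 h. Its levels did not overlap (log2 fold change -0.52 ± 0.07, adjusted p = 0.000189). Tet2, which oxidises methylated cytosine, rose from 3.13, 2.77 and 2.83 FPKM to 4.29, 3.94 and 3.75 FPKM (0.46 ± 0.06, adjusted p = 0.000124). Tfcp2l1 rose by 0.15 on the log2 scale (adjusted p = 0.0310). Klf4 measured 88.4, 88.5 and 90.8 FPKM at 48 h against 80.6, 81.8 and 87.9 FPKM at 240 h (-0.10 ± 0.05, adjusted p = 0.163), and Esrrb 4.98, 4.95 and 4.97 FPKM against 5.02, 5.10 and 5.22 FPKM (0.04 ± 0.04, adjusted p = 0.557). Neither passed the test, although the values at the 2 times did not overlap in either gene. After rescaling to TPM Esrrb passed as a rise (0.15, adjusted p = 0.0334). Of 13 tested genes of the primed or formative epiblast, 0 rose and 3 fell (limma; 0 and 4 at an unadjusted p under 0.05; 6.63% and 6.08% of all tested genes), namely Cldn6 (-0.44), Lef1 (-0.38) and Zic2 (-0.19).

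Most listed genes of the amino acid stress response were lower at 240 h. In this response uncharged tRNA activates the kinase Gcn2, translation of the transcription factor Atf4 goes up, and Atf4 switches on genes for amino acid synthesis, transport and tRNA charging. Of 24 list members tested, 16 fell, 0 rose and 8 did not pass (limma), and the median log2 fold change was -0.28. At an unadjusted p under 0.05, 17 were lower and 1 was higher. Of all tested genes 6.08% fell, with a median of -0.02. This list, like the others given here, was chosen with earlier results of these data known. Its count beside that share is therefore a description and no independent test. Chac1 was the only member past the fold threshold as well.

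**Figure D2:**
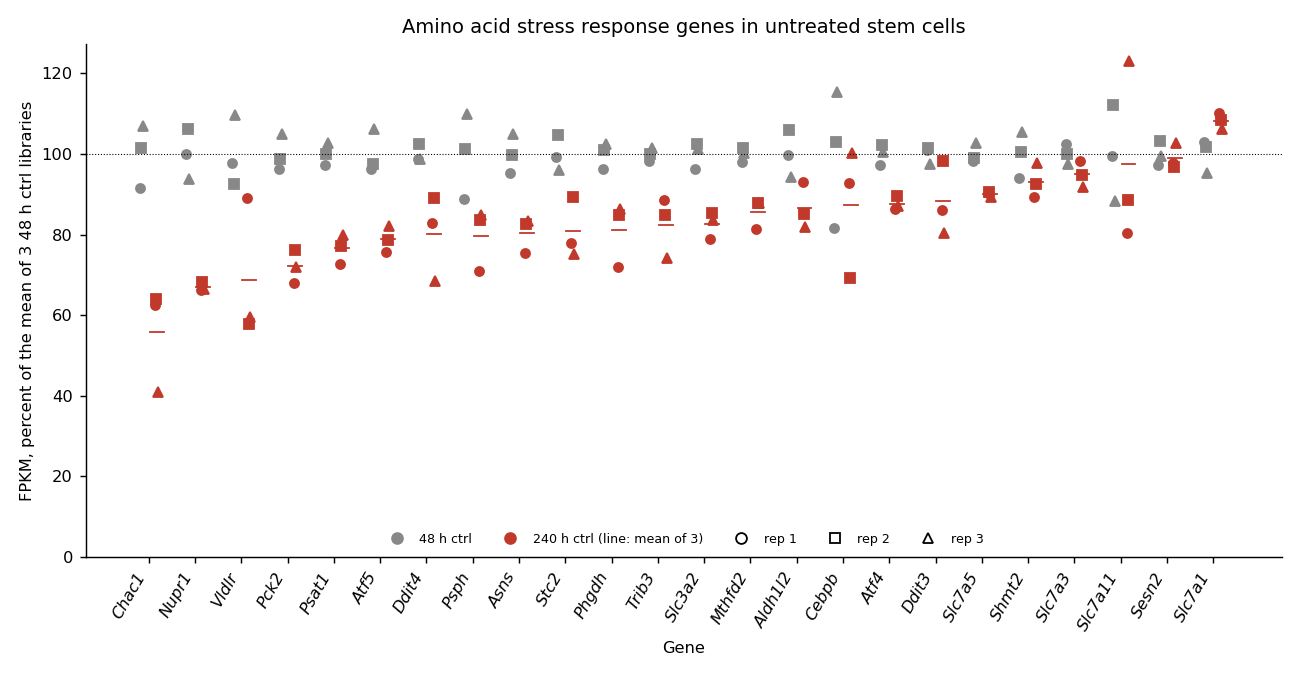
FPKM of the 24 tested amino acid stress response genes in each untreated library, as a percentage of the mean over the 3 48 h ctrl libraries, ordered by log2 fold change. Grey symbols are 48 h ctrl, red symbols 240 h ctrl and short lines the 240 h means. Most 240 h values lie below 100% and those of Chac1 reach down to 41.0%.

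Chac1, a glutathione-degrading enzyme and a sensitive target of Atf4, measured 10.3, 11.4 and 12.04 FPKM at 48 h against 7.04, 7.21 and 4.61 FPKM at 240 h. It had the largest fall among called genes whose mean reached 50 reads (log2 fold change -0.87 ± 0.13, adjusted p = 0.000462), and on log2(FPKM + 0.1) it did not pass (-0.86, adjusted p = 0.0645). The lowest value came from 240 h ctrl replicate 3, and replicates 1 and 2 also lay below all 48 h libraries. Nupr1, a stress-induced chromatin protein, fell from 3.19, 3.39 and 2.99 FPKM to 2.11, 2.18 and 2.12 FPKM (-0.58 ± 0.08, adjusted p = 0.000332). Atf4 itself fell by a smaller amount, from 153, 161 and 158 FPKM to 136, 141 and 137 FPKM (-0.19 ± 0.04, adjusted p = 0.00894), and its relative Atf5 by 0.34 on the log2 scale (adjusted p = 0.00198).

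Psat1, Phgdh and Psph, the enzymes of the serine pathway, had log2 fold changes of -0.38, -0.31 and -0.33 (adjusted p = 0.000100, 0.00438 and 0.0131). Asns, asparagine synthetase, measured 20.7, 21.7 and 22.9 FPKM at 48 h against 16.4, 18.0 and 18.1 FPKM at 240 h (-0.31 ± 0.05, adjusted p = 0.000916). Pck2, the mitochondrial phosphoenolpyruvate carboxykinase, fell from 7.10, 7.29 and 7.74 FPKM to 5.02, 5.62 and 5.32 FPKM (-0.47 ± 0.06, adjusted p = 0.000124). Of the folate enzymes, Mthfd2 fell (-0.22, adjusted p = 0.00583) and Shmt2 (-0.10) and Aldh1l2 (-0.21) did not pass. Transporters were mixed. Slc3a2, the shared heavy chain of amino acid exchangers, fell (-0.27), as did Slc7a5 (-0.15), whereas Slc7a1 (0.12), Slc7a3 (-0.07) and the cystine transporter Slc7a11 (-0.06) did not pass. The stress genes Ddit3 (-0.18), Sesn2 (-0.01) and Cebpb (-0.20) did not pass either.

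Promoters of these genes were searched for the letters TGATGNAA on both strands, the core of the elements that Atf4 is known to bind together with C/EBP partners. RefSeq promoters of GRCm38.p6, from 250 bases before to 50 bases after a gene start, were found for 21 of the 24 members. The letters occurred in 6 of the 15 promoters of members that fell and in 1 of 6 of the others, that of Slc7a11. Among tested genes with a promoter, 307 of 11308 had them (2.71%). The list names genes of a response that Atf4 drives, so a share above that of all genes does not depend on the 240 h values. With so few promoters, members that fell cannot be separated from the others by these letters. The match of Trib3 lay after the gene start. Chac1, the largest fall, and Pck2 are shown with their windows, 5′ to 3′ on the gene's strand and with the match in capitals; that of Chac1 ends where the annotated first exon of GENCODE begins.
Chac1 (chr2:119350992-119351228, plus strand): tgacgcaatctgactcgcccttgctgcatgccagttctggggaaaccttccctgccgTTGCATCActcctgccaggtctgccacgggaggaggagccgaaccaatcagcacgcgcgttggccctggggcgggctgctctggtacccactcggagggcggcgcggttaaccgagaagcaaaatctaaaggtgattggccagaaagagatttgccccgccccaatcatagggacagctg
Pck2 (chr14:55540016-55540265, plus strand): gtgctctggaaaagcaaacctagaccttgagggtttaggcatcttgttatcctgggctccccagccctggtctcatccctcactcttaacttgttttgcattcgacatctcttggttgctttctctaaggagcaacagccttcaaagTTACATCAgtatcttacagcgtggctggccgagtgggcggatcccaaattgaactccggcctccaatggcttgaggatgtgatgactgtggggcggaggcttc

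The windows of Nupr1, Vldlr and Asns overlap exons of other annotated transcripts, and 30 bases around each match are given, to compare the letters beside it.
Nupr1 (chr7:126625562-126625591, minus strand): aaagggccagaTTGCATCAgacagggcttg
Vldlr (chr19:27216809-27216838, plus strand): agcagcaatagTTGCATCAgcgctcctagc
Asns (chr6:7693214-7693243, minus strand): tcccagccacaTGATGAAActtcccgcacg

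In Chac1, Nupr1 and Vldlr the matched letters were identical, TTGCATCA, the reverse complement of TGATGCAA. They were centred 189, 106 and 196 bases before the gene start, and those of Pck2 and Asns 99 and 19 bases before it. Slc7a11, which did not pass the test, held the same letters on both strands, centred 62 and 43 bases before its gene start. Vldlr, a lipoprotein receptor that Atf4 is known to induce, measured 0.156, 0.148 and 0.175 FPKM at 48 h against 0.143, 0.0925 and 0.0952 FPKM at 240 h (log2 fold change -0.56 ± 0.18, adjusted p = 0.0482). A match describes the letters of the window and does not show binding. The count of members that fell was 16 again when a trend with transcript length was removed, but 8 without 48 h ctrl replicate 2, 9 after rescaling to TPM and 5 of 21 on log2(FPKM + 0.1).

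Genes of antigen presentation and of the interferon response gave falls as well. Of 14 tested, 6 fell and 0 rose (limma; 7 and 0 at an unadjusted p under 0.05), with a median log2 fold change of -0.23, where 6.08% of all tested genes fell. After rescaling to TPM 3 fell. Ifitm1, a membrane protein that restricts virus entry and marks the early germ line, fell from 70.4, 76.7 and 80.7 FPKM to 51.2, 53.2 and 54.0 FPKM (-0.52 ± 0.05, adjusted p = 2.99e-05). Tap1, the peptide transporter of the class I pathway, was called on a mean of 37 reads, with 0.384, 0.382 and 0.356 FPKM at 48 h against 0.233, 0.260 and 0.250 FPKM at 240 h (-0.59 ± 0.19, adjusted p = 0.0458). The call of Tap1 was lost when any 1 of the 6 libraries was left out (adjusted p = 0.0542 to 0.146) and after rescaling to TPM (0.0822). The shared light chain B2m (-0.47), the class I heavy chain H2-K1 (-0.25), Bst2 (-0.38) and Ifitm2 (-0.22) fell as well. The count was 2 when 48 h ctrl replicate 3 was left out and 3 when either 48 h ctrl replicate 2 or 240 h ctrl replicate 2 was.

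Transcripts of laminins and of several other basement membrane genes were higher. Of 14 matrix genes tested, 9 rose and 1 fell, against 6.63% of all tested genes that rose, and the median log2 fold change was 0.23. Hspg2, the core protein of perlecan, measured 4.40, 3.92 and 3.88 FPKM at 48 h against 6.39, 5.90 and 5.66 FPKM at 240 h (0.56 ± 0.06, adjusted p = 2.99e-05). Lama5 rose from 3.31, 2.86 and 2.90 FPKM to 4.76, 4.39 and 3.71 FPKM (0.50 ± 0.07, adjusted p = 0.000496). Col4a1 (0.38), Lamc1 (0.30), Lama1 (0.25), Fn1 (0.23), Nid1 (0.23), Col18a1 (0.19) and Lamb1 (0.17) rose by less, and Spp1, which encodes osteopontin, fell from 80.7, 83.2 and 81.1 FPKM to 67.3, 69.1 and 70.2 FPKM (-0.25). The summed FPKM of the list, which includes Spp1 and is weighted by gene span, was lower at 240 h, 123.5 to 124.2 against 127.4 to 129.9 at 48 h. These genes have long transcripts, with a median of 6270 bases, and when the trend with transcript length was removed 4 rose and 1 fell, with a median of 0.08. Without 48 h ctrl replicate 2, 5 rose, and on log2(FPKM + 0.1) 2 of 12 rose.

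Genes with long transcripts had higher medians at 240 h than genes with short ones. Protein-coding genes were grouped by the length of their longest annotated transcript, and the median log2 fold change was larger in each longer class, from -0.10 for 1489 genes of up to 1500 bases to 0.16 for 524 genes of over 9000 bases. In the longest class 191 genes rose (36.5%) and 15 fell (2.86%). In the shortest class 25 rose (1.68%) and 185 fell (12.4%). The difference between the medians of the longest and the shortest class, taken per library against the mean of the 48 h libraries, was 0.42, 0.24 and 0.16 in the 240 h ctrl replicates and 0.11, -0.03 and -0.08 in those of 48 h ctrl. All 240 h libraries lay above all 48 h libraries, and replicate 1 was highest at both times.

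**Figure D3:**
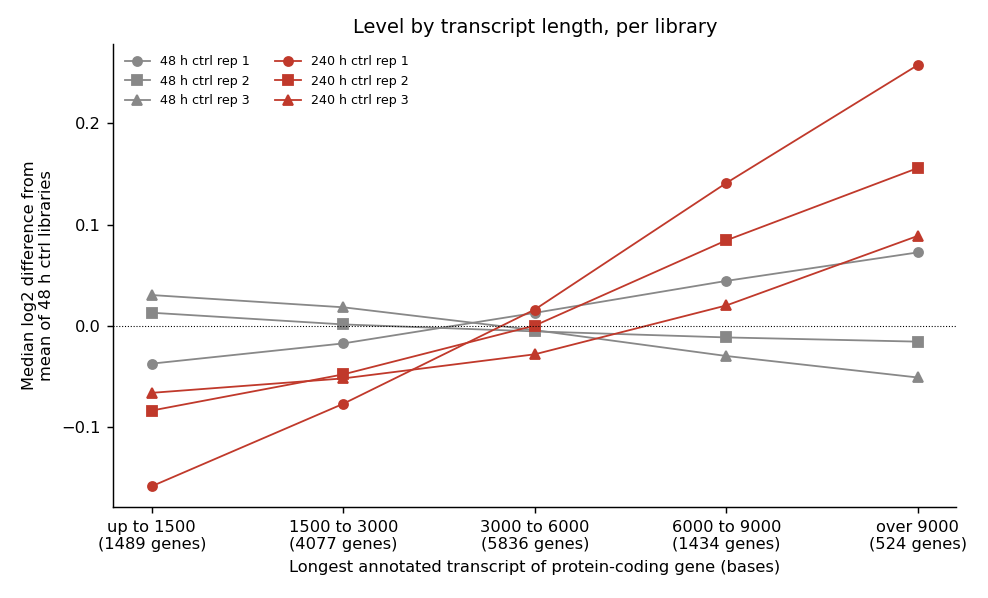
Median log2 difference from the mean of the 48 h ctrl libraries (vertical axis) for protein-coding genes in 5 classes of transcript length in bases (horizontal axis). Each line is 1 library, grey for 48 h ctrl and red for 240 h ctrl. The red lines climb from between -0.16 and -0.07 in the shortest class to between 0.09 and 0.26 in the longest.

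Measured in the same way against the 48 h ctrl libraries, the treated libraries at 240 h had differences of 0.31, 0.21 and 0.24, and 48 h kd replicate 2 had 0.22, against -0.02 and -0.003 in the other 48 h kd libraries. The labels give no measure of RNA integrity for the libraries, and its part in this pattern was not tested. Removing a smooth trend with transcript length and GC content left 138 genes called higher and 92 lower, of which 190 were among the 223 calls. At an adjusted p under 0.05 alone, 807 rose and 1210 fell after that removal.

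Some genes of long transcripts, chosen after their values were seen, are given as examples. Kmt2d, a methyltransferase of histone H3 at enhancers, measured 4.64, 3.86 and 3.61 FPKM at 48 h against 7.31, 6.95 and 6.004 FPKM at 240 h (log2 fold change 0.74 ± 0.08, adjusted p = 4.30e-05), from a transcript of 19823 bases. Its relative Kmt2a rose from 1.56, 1.38 and 1.32 FPKM to 2.43, 2.15 and 1.94 FPKM (0.61 ± 0.07, adjusted p = 0.000100). In both genes the groups were well apart, with 48 h ctrl replicate 1 the highest of its group and 240 h ctrl replicate 3 the lowest. The giant scaffold protein Ahnak (0.73), the corepressor Spen (0.62), the DNA damage kinase Atm (0.64), the ribosome biogenesis factor Mdn1 (0.59) and Prrc2c (0.60) were also called higher, and the ubiquitin ligases Huwe1 (0.51) and Birc6 (0.45) rose under the fold threshold. With the length trend removed, the log2 fold changes were 0.49 for Kmt2d, 0.41 for Kmt2a, 0.54 for Ahnak, 0.41 for Spen, 0.40 for Mdn1 and 0.33 for Huwe1, all still past the adjusted p of 0.05 and none past the fold threshold. Tbx3, with a transcript of 4982 bases, had 0.40 (adjusted p = 9.09e-05) after the removal.

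Inside protein-coding genes, the change depended on how far from the 3′ end reads were counted. Of the tested noncoding features that lie within a protein-coding gene, 398 cover at least 200 bases of the exons of its longest transcript, 381 of them on the opposite strand. Since strand was not used in counting, their values include reads of the host transcript. The median log2 fold change was -0.11 for 67 features within 1000 bases of the 3′ end of the host transcript, -0.06 for 97 at 1000 to 2000 bases, 0.16 for 127 at 2000 to 4000 bases, 0.39 for 64 at 4000 to 6000 bases and 0.55 for 43 at over 6000 bases. The hosts of the last class had a median of 0.11. In this class all 14 called features were higher, beside 0.857% of all tested genes called higher and 0.518% called lower. At 4000 to 6000 and at 2000 to 4000 bases 4 features each were called, all higher, none was called at 1000 to 2000 bases, and 2 were called within 1000 bases, both lower. For the class of over 6000 bases, the 3 libraries at 240 h had medians of 0.56, 0.55 and 0.53 against 0.09, -0.05 and -0.08 at 48 h. Medians in treated cells went from -0.11 to 0.37 over the same classes.

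**Figure D4:**
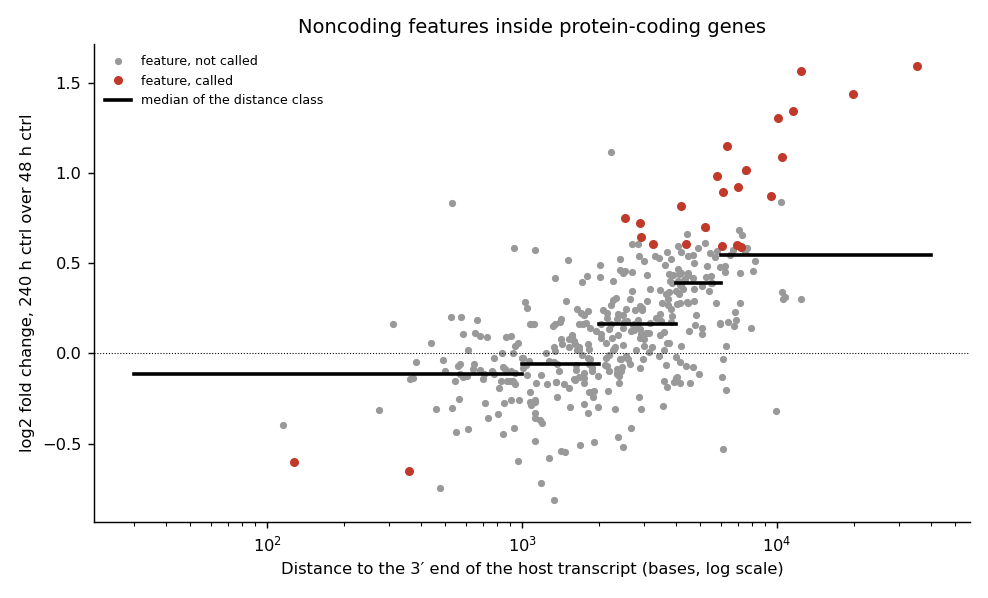
log2 fold change of 240 h ctrl over 48 h ctrl (vertical axis) for 398 noncoding features inside protein-coding genes, by their distance from the 3′ end of the host transcript in bases (horizontal axis, log scale). Red points were called and black lines are class medians, which go from -0.11 to 0.55. Called features far from the 3′ end are all higher.

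Birc6, an inhibitor of apoptosis with a transcript of 15768 bases, is an example. It rose from 1.87, 1.77 and 1.72 FPKM to 2.56, 2.36 and 2.38 FPKM (log2 fold change 0.45), while Gm26749, centred 11536 bases from its 3′ end, went from 1.12, 0.867 and 0.836 FPKM to 2.60, 2.19 and 2.35 FPKM (1.35 ± 0.09, adjusted p = 9.17e-07). Gm26788 inside Dst rose by 1.44 and its host by 0.46, and Gm2366 inside Fat1 rose by 1.30 and its host by 0.49. The fold changes of these features were larger than those of the whole host. Among the 10 largest named rises, Peak1os (1.10) and Nckap5los (0.81) also lie within another gene, Peak1 and Nckap5l, and the antisense feature listed as Apol7d (0.95) overlaps the start of Fn1. Tbx3os1 (1.08) likewise overlaps the start of Tbx3.

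Subunits of the BAF complexes, to which Smarcb1 belongs, showed 7 rises and 0 falls among 26 tested (limma; 12 and 4 at an unadjusted p under 0.05), against 6.63% of all tested genes that rose. After rescaling to TPM 14 rose, and on log2(FPKM + 0.1) 1 of 21 rose. Arid1a, a subunit of the stem cell form of the complex, rose from 6.51, 6.07 and 5.63 FPKM to 8.06, 7.61 and 7.53 FPKM (0.35 ± 0.05, adjusted p = 0.000482). Bicra (0.33), Smarcc2 (0.27), Arid2 (0.23), Pbrm1 (0.19), Smarcc1 (0.18) and Bicral (0.17) rose less, and without the length trend 2 rose and 1 fell. Leaving out 48 h ctrl replicate 3 left 1 rise, leaving out 48 h ctrl replicate 2 left 3 and leaving out 240 h ctrl replicate 2 left 4. Of 12 tested PRC2 subunits, 0 passed the test (limma), and 2 were lower at an unadjusted p under 0.05, the number that fell once the length trend was removed. Of 9 enzymes of DNA methylation 4 rose, namely Tet2, Tet1 (0.32), Dnmt1 (0.16) and the Dnmt1 partner Uhrf1 (0.16), 2 of them after the length trend was removed, and 2 when either 48 h ctrl replicate 2, 48 h ctrl replicate 3 or 240 h ctrl replicate 2 was left out.

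Imprinted genes, which are expressed from 1 parental allele and are known to be labile in cultured stem cells, gave 3 rises and 6 falls among 28 tested, where 6.63% of all tested genes rose and 6.08% fell. Dlk1, a paternally expressed Notch ligand homologue, was called lower on a mean of 14 reads (0.132, 0.189 and 0.126 FPKM at 48 h, 0.0765, 0.0618 and 0.0669 FPKM at 240 h, log2 fold change -1.06 ± 0.31, adjusted p = 0.0310). Airn, the antisense RNA that silences its neighbours on the paternal allele, was called higher with 0.0393, 0.0304 and 0.0320 FPKM at 48 h against 0.0548, 0.0526 and 0.04997 FPKM at 240 h (0.63 ± 0.16, adjusted p = 0.0136). It overlaps Igf2r, which did not pass (0.06, adjusted p = 0.498). H19 (0.48) and Peg10 (0.28) rose, and Grb10 (-0.44), Phlda2 (-0.40), Rian (-0.36), Gnas (-0.19) and Snrpn (-0.19) fell. The calls of Airn and Dlk1 were each lost without 48 h ctrl replicate 2 (adjusted p = 0.0740 and 0.172), 48 h ctrl replicate 3 (0.0622 and 0.0720) or 240 h ctrl replicate 2 (0.0576 and 0.0941). No expression by allele can be read from these values.

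Among 16 immediate early genes, which serum and growth factors induce within minutes, 2 rose and 2 fell, counts near the 6.63% and 6.08% of all tested genes. Egr1 was called higher with 3.06, 3.60 and 2.82 FPKM at 48 h against 6.71, 5.85 and 3.18 FPKM at 240 h (0.67 ± 0.19, adjusted p = 0.0272). The value of 240 h ctrl replicate 3 lay within the 48 h range, so the groups overlapped. Its call was lost when any 1 of the other 5 libraries was left out (log2 fold change 0.45 to 0.76, adjusted p = 0.0528 to 0.137), and without 240 h ctrl replicate 3 the log2 fold change was 0.99. Atf3, which is also a stress gene, was called lower on a mean of 45 reads, from 0.107, 0.0888 and 0.0943 FPKM to 0.0572, 0.0578 and 0.0589 FPKM (-0.73 ± 0.17, adjusted p = 0.0113). Myc rose (0.21) and the phosphatase Dusp1 fell (-0.32). Genes of cytosolic ribosomal proteins, whose transcripts are short, had 34 falls and 0 rises among 85 tested (limma; 57 and 0 at an unadjusted p under 0.05), with a median of -0.14, and 22 falls after the length trend was removed. That count was 6, 7, 9 and 13 when 48 h ctrl replicate 2, 48 h ctrl replicate 3, 240 h ctrl replicate 2 or 240 h ctrl replicate 1 was left out, 63 when 240 h ctrl replicate 3 was, and 2 after rescaling to TPM.

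Some of the largest changes belonged to no list. Zbed6, a transposon-derived repressor encoded within an intron of Zc3h11a, rose from 6.58, 5.21 and 5.94 FPKM to 14.7, 11.9 and 9.57 FPKM (log2 fold change 1.01 ± 0.12, adjusted p = 7.86e-05), while Zc3h11a rose by 0.19. Ttn, which encodes the muscle protein titin, had 0.0345, 0.0330 and 0.0295 FPKM at 48 h against 0.0641, 0.0630 and 0.0743 FPKM at 240 h (1.05 ± 0.10, adjusted p = 2.99e-05), from a mean of 172 reads and with an annotated transcript of 106824 bases. The zinc finger genes Zfp971 (1.01) and Zfp978 (0.87), Arl14epl (0.87) and the TGF-beta binding protein Vasn (0.80) completed the 10 largest rises among genes that are not predicted ones and have a mean of at least 50 reads. Predicted genes such as Gm26788 and Gm26749 rose by more. Zfp971 and Zfp978 belong to families of near-identical copies, and reads may have been split between copies.

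The 10 largest falls, taken by the same rule from genes whose groups did not overlap, were led by Chac1. Sema6a, a membrane-bound axon guidance ligand, measured 0.104, 0.0975 and 0.0888 FPKM at 48 h against 0.0543, 0.0542 and 0.0551 FPKM at 240 h, with a mean of 124 reads (log2 fold change -0.82 ± 0.11, adjusted p = 0.000222). The 240 h values were tightly grouped and below every 48 h value. Galnt16 (-0.79), an enzyme of O-glycosylation, Tnfaip8 (-0.75), the collagen chain Col9a3 (-0.70), Hid1 (-0.68), the antisense RNA Lrrc8dos (-0.68), the glutathione transferase Gstm5 (-0.68), the chondroitin sulfotransferase Chst11 (-0.67) and the transcription factor Zfp521 (-0.67) followed, on means of 58 to 100 reads. Calls were lost for Hid1 without 48 h ctrl replicate 1, 48 h ctrl replicate 2 or 240 h ctrl replicate 1, for Lrrc8dos without 48 h ctrl replicate 2, 48 h ctrl replicate 3 or 240 h ctrl replicate 1, for Zfp521 without 48 h ctrl replicate 2, 48 h ctrl replicate 3 or 240 h ctrl replicate 2 and for Gstm5 without 48 h ctrl replicate 3 (adjusted p = 0.0510 to 0.143). On log2(FPKM + 0.1) Gstm5 and Lrrc8dos did not pass (adjusted p = 0.0575 and 0.0746). After rescaling to TPM Hid1 (-0.57), Lrrc8dos (-0.57), Gstm5 (-0.56), Chst11 (-0.56) and Zfp521 (-0.56) still passed but lay under the fold threshold of 0.58. Among the rises Nckap5los was lost without 48 h ctrl replicate 2 or 240 h ctrl replicate 2 (adjusted p = 0.0807 and 0.0869), and on log2(FPKM + 0.1) Nckap5los and Vasn did not pass (0.0918 and 0.0935).

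Markers of other cell types were checked by list, and their FPKM were summed to compare libraries. Such a sum is weighted by gene span and does not measure the amount of a cell type. Of 13 tested primitive endoderm genes 5 rose and 0 fell (limma; 7 and 0 at an unadjusted p under 0.05), where 6.63% of all tested genes rose, but 4 of these, Lama1, Lamb1, Lamc1 and Col4a1, are matrix genes described above. The fifth, Cubn, an endocytic receptor, was called higher on a mean of 29 reads (0.00744, 0.00921 and 0.00615 FPKM at 48 h, 0.0157, 0.0117 and 0.0152 FPKM at 240 h, log2 fold change 0.89 ± 0.23, adjusted p = 0.0194). The lineage factors Gata4 (0.35, adjusted p = 0.281) and Gata6 (0.40, adjusted p = 0.420) did not pass, Sox17 had a mean of 4 reads, and the summed FPKM of all 17 members was 13.72 to 13.96 at 48 h and 15.3 to 16.3 at 240 h. Without the length trend 3 of the 13 rose, as also without 48 h ctrl replicate 3, and the call of Cubn was lost without 48 h ctrl replicate 3 or 240 h ctrl replicate 1 (adjusted p = 0.0933 and 0.0687). The share of such cells was not tested, and in bulk samples fewer cells of a type and less RNA per cell cannot be told apart. Of 7 tested fibroblast genes 2 rose, against the same 6.63%, among them Col1a1, called on a mean of 44 reads (0.65 ± 0.17, adjusted p = 0.0209), and 0 rose once the length trend was removed (Col1a1 0.52, adjusted p = 0.0593). The call of Col1a1 was also lost without 48 h ctrl replicate 2, 48 h ctrl replicate 3 or 240 h ctrl replicate 2 (adjusted p = 0.0707, 0.0784 and 0.0966). Lum and Postn are listed at 0 in all 6 libraries, as are 6 mitochondrially encoded genes that every cell uses, so a listed 0 does not show lack of expression, and the summed FPKM of the 15 members was 27.5 to 28.1 at 48 h and 31.3 to 31.6 at 240 h. Summed FPKM overlapped between the times for trophoblast genes (18.7 to 19.6 at 48 h, 18.3 to 20.6 at 240 h) and neural progenitor genes (21.3 to 23.5 and 21.2 to 22.4). They also overlapped for neuronal genes (43.8 to 45.3 and 41.3 to 45.9) and mesoderm genes (1.54 to 1.86 and 1.67 to 1.93). No gene of the 2-cell-like state reached a mean of 10 reads, and median log2 differences per chromosome lay between -0.06 and 0.01 in all 240 h libraries.

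The same interval was then examined in the treated cells, 240 h kd against 48 h kd, which share no library with the untreated comparison but add the duration of the knockdown. There, 3352 of 16532 tested genes rose (20.3%) and 3252 fell (19.7%), of which 1360 (8.23%) and 1182 (7.15%) were called. Of the 139 genes called higher in untreated cells 136 were tested, and 64 of them were also called higher with knockdown, against 5 called lower. Of the 84 genes called lower 81 were tested, and 25 were also called lower, against 5 called higher. The shares, 47.1% and 30.9%, lay above the background of 8.23% and 7.15%. With the length trend removed from both comparisons the shares were 44.4% and 29.2%. In that fit of the treated cells, 1349 of 16532 genes were called higher and 1215 lower.

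**Figure D5:**
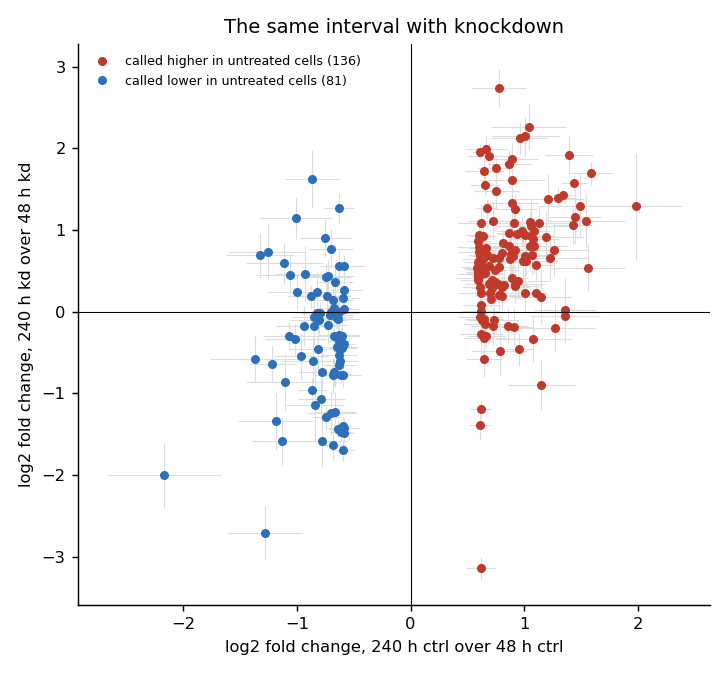
log2 fold change of 240 h over 48 h in untreated (horizontal axis) and doxycycline-treated cells (vertical axis) for the genes called in untreated cells and tested in both. Bars are standard errors, and colours mark the 136 genes called higher and the 81 called lower in untreated cells. Most points called higher lie above 0 on the vertical axis, and those called lower scatter on both sides of it.

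Tbx3 rose in treated cells as well, by 0.66 ± 0.07 on the log2 scale (adjusted p = 1.76e-05), and the difference between the 2 changes did not pass the interaction test (0.19, adjusted p = 0.124). Of the 24 amino acid stress genes, 16 fell and 1 rose in treated cells, with a median of -0.43, where 19.7% of all tested genes fell and 20.3% rose. Chac1 fell by 0.96, Ddit4 (0.14) and Slc7a5 (-0.004), which fell without knockdown, did not pass with it, and Ddit3 (-0.48) and Slc7a3 (-0.27), which had not passed without it, fell. Of the 14 matrix genes, 6 rose and 6 fell in treated cells, with a median of -0.02, beside the same 20.3% and 19.7%. For 8 of these 14 the interaction passed, beside 20.2% of all genes tested. The interaction passed for 9 of the 24 amino acid stress genes, beside 20.2% of all genes tested, and for Trib3, Stc2, Atf4, Atf5, Asns and Mthfd2 the fall was larger with knockdown (interaction between -0.28 and -0.61, adjusted p under 0.05 for each). Kmt2d (0.37), Ahnak (0.66), Spen (0.64) and Zbed6 (0.94) rose in treated cells, too, and none of these passed the interaction test.

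Other genes changed differently without and with the knockdown. Over all genes the interaction of time and treatment passed for 3318 of 16403 (20.2%). Nkx6-3, a homeobox factor chosen here for its opposite changes, was called higher in untreated cells, from 1.08, 1.24 and 1.17 FPKM to 2.12, 1.69 and 1.60 FPKM (0.62 ± 0.13, adjusted p = 0.00649), and fell with knockdown (-3.14, a difference of -3.76). Prom1, a membrane protein of progenitor cells chosen likewise, went the other way, with -0.63 in untreated and 1.27 in treated cells. Eppk1, a giant cytoskeletal linker and the last of the genes chosen for this, rose by 0.62 and fell by 1.19 on the log2 scale, respectively. Tet2 rose without and fell with knockdown (-0.62, interaction -1.07, adjusted p = 4.65e-06), and Dppa3 fell without knockdown and did not pass with it (0.14, interaction 0.66, adjusted p = 0.000178).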

How the data were processed

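RNA-seq was measured in 15 libraries of 81K1 mouse embryonic stem cells, of which 6 (3 each of 48 h ctrl and 240 h ctrl) make the main comparison. Per the labels and the study's methods, the authors sequenced single reads, aligned them with STAR 2.7.0c to mm10 (GRCm38) and used DESeq2 1.30.0 in R 4.0.3, versions as listed in the submitters' processing notes. The deposited values are FPKM per gene and library. Multiplying them by the whole gene span and 1 total per library turned 100% of the values above 0 into whole reads (tolerance 0.001), which were used further, 11074998 to 14515300 per library. Reads summed over genes exceed the totals by 7.38% to 8.34%, since overlapping genes share reads. Identifiers, types and transcript lengths come from GENCODE M21 (96.5% of genes matched), and coordinates are 1-based.

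Because the files hold FPKM and not counts, log2 reads scaled to a common library size, with 0.5 read added, were tested with limma 3.58.1 (R 4.3.3, lmFit, eBayes with a trend, two-sided) for genes whose mean reached 10 reads, with Benjamini-Hochberg adjustment over all genes tested. "Passed" means an adjusted p under 0.05, and "called" adds an absolute log2 fold change above 0.58, as in the study. Every adjusted p of a gene is from limma. Treated cells were tested likewise, and an interaction over 12 libraries tested differences. Exact permutation of 3 against 3 samples was not used, since its two-sided p cannot go under 0.1. Groups and lists were taken from the labels and from general knowledge, and both the members and the lists were chosen with earlier results of these data known. Genes were named by rule (Smarcb1, Tbx3, Pou5f1, Sox2, Nanog, Klf4 and Esrrb, the 10 largest rises and falls among called genes with at least 50 reads, predicted genes left out, and groups that do not overlap, and up to 4 called members per list), and all others after their values were seen. On counts simulated from the mean levels and totals of these libraries, 100% of 100 genes changed 2-fold and 88% of 100 changed 1.63-fold were recovered. Among 16209 tested genes there were 3 false calls. The simulation gave all genes the same set dispersion and no trend between libraries, and changed only genes with at least 50 reads. It does not hold the spread of the real replicates, so these figures do not carry over to the calls reported here. Alternatives varied filter, pseudocount, scaling, variance model, libraries, block, thresholds and trends; the removal of a transcript-length trend (loess, with GC content) was added after the data were seen. Python 3.11.15, numpy 2.4.6, pandas 2.3.3 and matplotlib 3.10.9 were used. Reads carry no molecular identifiers. The 72 h kd libraries entered only 1 alternative.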

Additional observations from a re-analysis of the deposited data

Results flagged for a closer look

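For 16 of the genes named by rule, the change between 48 h and 240 h differed between treated and untreated cells in the test of the interaction (limma, adjusted p under 0.05). Values are the log2 change with knockdown minus that without it. Most of these genes were chosen for the size of their untreated change, which enters this difference with the opposite sign, so the count is not set against that of all genes. The change with knockdown was lower for Klf4 (-0.335), Esrrb (-0.639), Tnfaip8 (-0.547), Peak1os (-0.877) and Apol7d (-1.41). It was higher for Zfp978 (0.933) and Cubn (0.973), which rose in untreated cells and rose by more with knockdown, as did Col1a1 (1.07) and Egr1 (1.33). It was also higher for Sema6a (0.809), Galnt16 (0.777), Col9a3 (0.693), Hid1 (0.834) and Gstm5 (0.725), all of which fell in untreated cells and had treated changes of -0.02 to 0.15 that did not pass. Dlk1 (1.52) fell in untreated cells on a mean of 14 reads, and Tap1 (1.15) fell without and rose with knockdown. Since each group had 3 libraries, no single library was tested as an outlier.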

How the results depend on the processing

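Of 223 called genes (139 higher, 84 lower), a minimum mean of 50 reads gave 109 (73 and 36), 108 of them among the 223. With a minimum mean of 0.5 FPKM at the same time, log2(FPKM + 0.1) gave 54 (40 and 14) and log2(FPKM + 1) gave 27 (20 and 7); of the 223 genes 97 were tested there, and 35 and 13 of them were called. TPM scaling gave 359 (321 and 38) and dropping the fold minimum 2061 (1075 and 986). An adjusted p under 0.1 gave 194 higher and 139 lower, and genes that overlap no other gene gave 69 (41 and 28). Without a trend in the prior variance limma called 0, 0 higher and 0 lower, and Tbx3 (log2 fold change 0.47, which this setting cannot move) no longer passed, with an adjusted p of 0.0577; the cause was not tested. Leaving out 1 library gave 94 to 310 called genes, 65 to 207 higher and 29 to 105 lower. Correlations of same-numbered deviations were 0.53, -0.04 and 0.39 for replicates 1, 2 and 3, so pairing by replicate number was not settled. The main test did not use such pairing. A fit with the replicate number as a block called 339 genes, 202 higher and 137 lower. For treated cells the 2542 calls became 1459 at a minimum of 50 reads, 954 on log2(FPKM + 0.1), 480 on log2(FPKM + 1), 6604 without a fold minimum and 1087 for genes that overlap no other. The 1711 interaction calls became 664, 333, 3318 and 744 under the last 4 of these settings. Among genes that did not pass the test, signs changed for Pou5f1 (0.0086 with quantile normalization, 0.053 with TPM, and -0.12 to 0.0031 when 1 library was left out), Klf4 (0.013), Smarcb1 (0.040) and Sox2 (0.030) with TPM, and Esrrb when a trend with gene span (-0.016) or transcript length (-0.0088) was removed. On log2(FPKM + 0.1) the counts of list members were 5 for amino acid stress, 2 for antigen presentation, 2 for matrix, 2 for cholesterol synthesis, 4 for ribosomal proteins and 1 each for BAF, primitive endoderm and DNA methylation. Genes with few reads and genes sharing reads with a neighbour limit what these libraries resolve.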

Other observations

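Other gene lists are given beside the 6.63% of all tested genes that rose and the 6.08% that fell. Of 25 genes of cholesterol synthesis and uptake, 5 fell and 1 rose (12 and 1 at an unadjusted p under 0.05). The count of falls was 1 without 240 h ctrl replicate 2, 2 without 48 h ctrl replicate 2 or 48 h ctrl replicate 3, 3 without 240 h ctrl replicate 1 and 1 after rescaling to TPM. Of 17 actin cytoskeleton and Srf target genes 5 fell and 1 rose, of 17 glycolysis genes 3 fell and 0 rose (limma; 8 and 0 at an unadjusted p under 0.05), and of 19 redox defence genes 4 fell and 3 rose. Of 14 genes of endoplasmic reticulum and heat stress 3 fell and 0 rose (limma; 4 and 0 unadjusted). Of 13 hypoxia response genes 2 fell and 1 rose, and of 15 p53 targets 1 fell and 0 rose (3 and 0 unadjusted).

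Among signalling pathways, 2 of 16 FGF and ERK feedback genes fell and 0 rose (limma; 4 and 0 unadjusted), 1 of 15 genes of the LIF and Stat3 pathway fell and 2 rose, 1 of 11 Nodal pathway genes and 1 of 13 Wnt targets moved in each direction, and 1 of 11 BMP and Id genes fell. Of 25 genes of DNA replication and mitosis 4 rose and 1 fell. With a trend with transcript length removed, 1 gene of DNA replication and mitosis rose and 1 fell, 0 genes of the LIF and Stat3 pathway rose and 2 fell, and falls numbered 5 in glycolysis, 3 in FGF and ERK feedback and 2 each in the Wnt, p53, G1 cyclin and neural progenitor lists. Markers of other lineages gave 2 falls and 1 rise among 13 neuronal genes, 1 fall among 6 genes of neural progenitors, 1 rise and 1 fall among 9 trophoblast genes and 1 rise among 17 germline genes. The test passed 0 genes (limma) among 14 G1 cyclins and CDK inhibitors, 7 mitochondrially encoded genes, 5 keratins, 2 mesoderm genes and 3 sex-linked genes, of which 3, 0, 1, 0 and 0 were lower and 0 higher at an unadjusted p under 0.05.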
